A study of Mus musculus with 12 samples.

Results

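The translation initiation and elongation factors of the mouse were taken here as every protein-coding gene of the deposited count table whose symbol begins with Eif1 to Eif5, Eef1 or Eef2, leaving out the eIF2 kinases (Eif2ak) and pseudogenes. This gave 63 of the 56941 genes in the table, and 59 of the 63 had enough counts to be tested. RNA was sequenced from CH12F3-2A, a B lymphoma line of the mouse that can be made to switch its antibody from IgM to IgA in culture, in 4 groups of 3 libraries stated to be biological replicates. All 4 groups were transfected with a pX459 plasmid, which carries Cas9 and a guide RNA, and were selected with puromycin for 72 h. The guide was non-targeting in sgCtr cells and directed at Nop16, which encodes a nucleolar protein, in sgNop16 cells. Each guide was studied without stimulation and after 24 h of CIT, a mixture of anti-CD40L at 1 µg/ml, mouse IL-4 at 20 ng/ml and human TGF-β at 1 ng/ml. The sources used here do not give the position of the guide in Nop16, the edited alleles or whether pools or clones were grown. The study asks what NOP16 does in class switch recombination to IgA.

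Protein synthesis starts when eIF2 brings the initiator tRNA to the small ribosomal subunit, where eIF1, eIF1A, eIF3 and eIF5 gather, and when eIF4E, eIF4G and eIF4A recruit that subunit to the cap of an mRNA. eIF5B then joins the large subunit, and during elongation eEF1A delivers each aminoacyl-tRNA and eEF2 moves the ribosome along. The rate is set largely through phosphorylation of eIF2, through the eIF4E binding proteins downstream of mTOR, and through a kinase of eEF2. In activated B cells this machinery is known to expand with cell growth, and several of its genes are known targets of MYC.

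Total counts per library lay between 38866418 and 48615177. Levels are given as CPM, the counts of a gene scaled to a common library size with TMM factors, which lay between 0.985 and 1.013. Calls were made at an adjusted p under 0.05, by the quasi-likelihood test of edgeR on 16794 genes, and log2 differences are given with the standard error (SE) of that model. Nop16 itself was at 104, 108 and 107 CPM in unstimulated sgCtr libraries and at 85.9, 82.4 and 88.6 CPM in unstimulated sgNop16 libraries (log2 difference -0.31 ± 0.044, adjusted p = 0.000109), and the difference with CIT was -0.23 ± 0.045. All 9 B cell markers checked were present. Of 6 T cell, 5 macrophage, 5 fibroblast and 6 erythroid markers, the summed level was at most 9.80 CPM in any library. The macrophage sum lay between 0.691 and 0.970 CPM without and 4.35 and 5.92 CPM with CIT in sgCtr cells, and between 1.34 and 2.12 and 6.91 and 9.80 CPM in sgNop16 cells, with Cd14, Fcgr1 and Mertk at 0 in all libraries. The fibroblast sum lay between 1.41 and 2.89 CPM without and 3.22 and 5.20 CPM with CIT, with Col1a2 and Dcn at 0. The B cell sum was 4310 to 4368 CPM without and 4107 to 4222 CPM with CIT in sgCtr cells, and 3954 to 3992 and 3803 to 3903 CPM in sgNop16 cells. The part of these markers in the results was not tested. The first principal component separated stimulated from unstimulated libraries and held 40.8% of the variance.

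After CIT most of the factor genes fell, and most of them by a modest amount. In sgCtr cells 50 of the 59 tested members fell and 1, Eif2b2, rose, where 21.1% of all tested genes fell and 20.6% rose (41.7% in all). The median log2 difference was -0.25 over the members and 0.018 over all tested genes. In 51 of 59 members all 3 stimulated libraries lay below all 3 unstimulated ones, which was so for 25% of all genes, and in 1 member they lay above, against 25.5%. Since abundant genes are called more readily, the members at 66.9 to 501 CPM were also set beside all genes in that range. There 27 of 29 members fell, where 45.4% of 3478 genes did, and 0 rose, where 26.7% did. In sgNop16 cells 43 of 59 fell and 4 rose, where 18.5% and 19.3% of all genes did (37.8% in all), with a median of -0.18 beside 0.012. In that level range 22 of 29 fell and 2 rose, against 39.8% and 26.4% of genes. The stimulated libraries lay below all unstimulated ones in 46 members (22.7% of all genes) and above them in 4 (24.3%). The CIT responses of the guides share no library, and 42 of 59 members fell in both, where 15.5% of all tested genes did, 1 rose in both, where 15.4% did, and 0 were called in opposite directions, where 0.131% were. With bulk RNA, fewer cells of a type and less RNA per cell cannot be told apart, and a level is a share of the library and not an amount per cell.

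**Figure D1:**
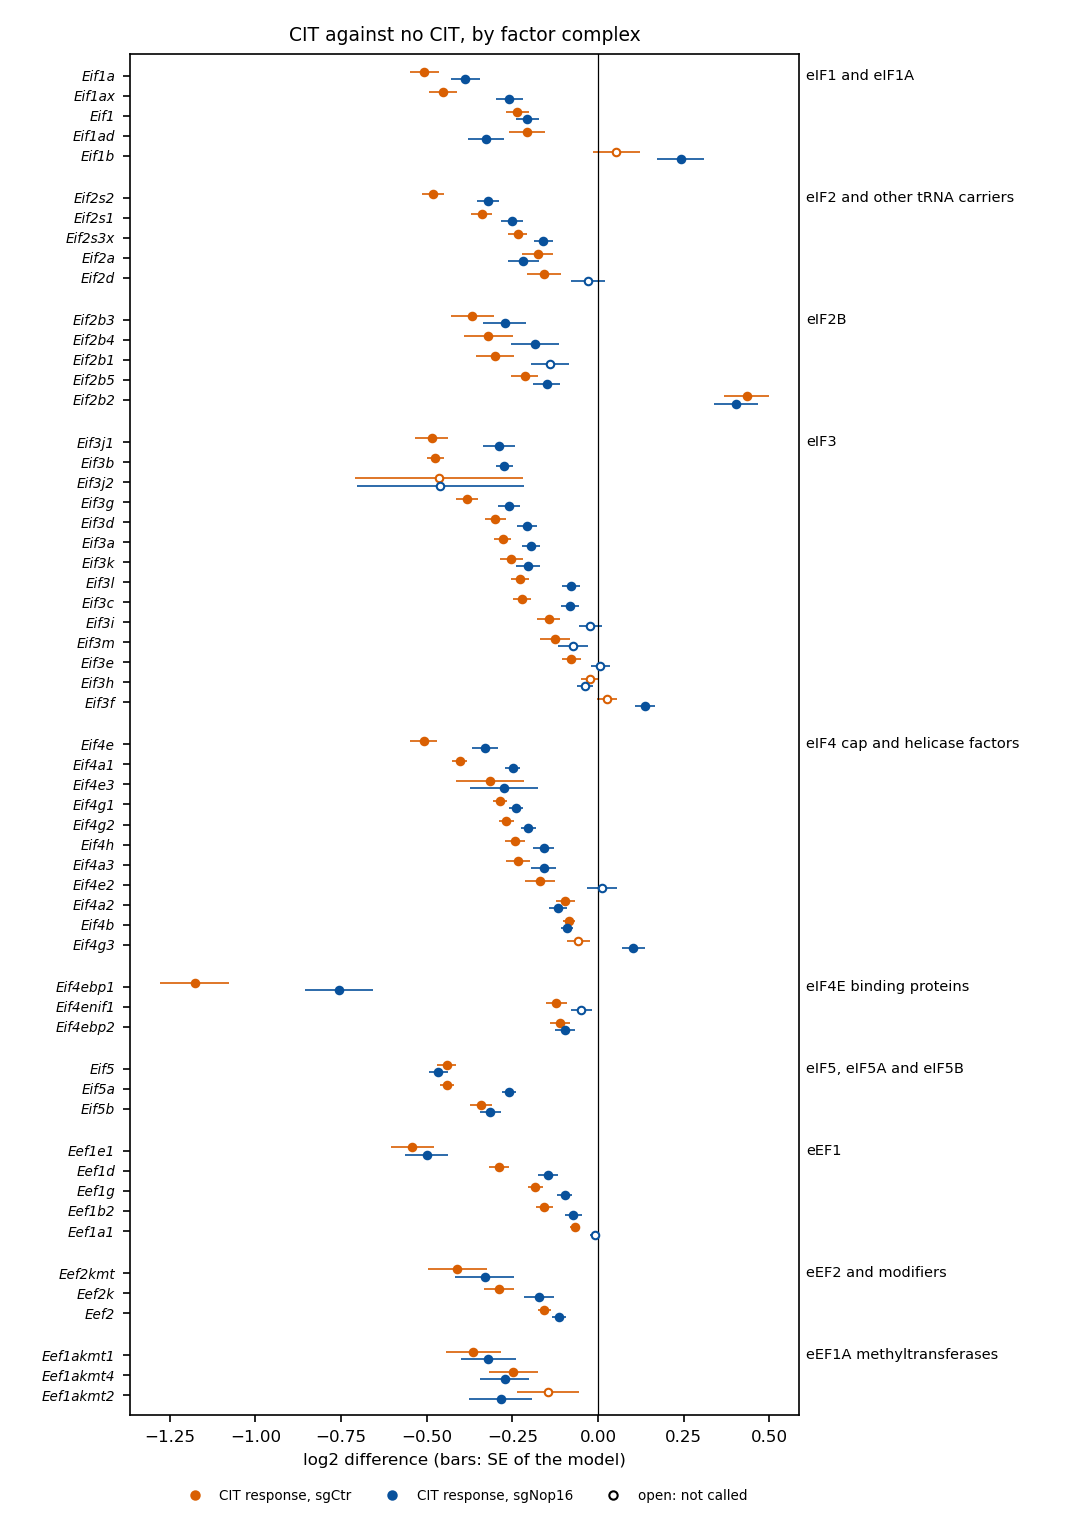
Log2 difference of CIT against no CIT (horizontal axis, bars are the SE of the model) for 57 of the 59 tested factor genes by complex, in sgCtr cells (orange) and sgNop16 cells (blue), with open points where the adjusted p was not under 0.05. The 2 tested members with the lowest counts, Eif4ebp3 and Eef1akmt3, are left out. Most points lie left of 0, Eif4ebp1 lies farthest left at -1.18 and Eif2b2 lies right of 0 with both guides.

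Summed over all 63 members, the factor genes took 3.26 to 3.28% of the counts in unstimulated sgCtr libraries and 2.92 to 2.95% after CIT. In sgNop16 libraries they took 3.19 to 3.24% without and 2.973 to 3.003% with CIT. The groups did not overlap in either guide, and the summed level fell by 12.3% in sgCtr and by 7.87% in sgNop16 cells. Levels of different genes were compared per kilobase of exon, from the lengths of a GRCm38 annotation. In unstimulated sgCtr cells Eef1a1, the tRNA carrier of elongation, stood first at 3509 ± 26.2 CPM per kb (SD, n = 3), ahead of Eef2 at 1038 ± 4.59, Eif5a at 713 ± 8.97, Eef1g at 566 ± 5.40, Eif4b at 459 ± 6.76 and Eif3h at 362 ± 7.51. Eef1b2 at 305 ± 6.21 and Eif4a1 at 303 ± 7.21 CPM per kb came next and did not differ beyond their spread. With the longest transcript as the length, Eif5a at 1180 ± 14.8 CPM per kb lay above Eef2 at 1117 ± 4.94, so their order depends on the length used.

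To show what the promoters of genes that moved apart look like, 4 are printed from RefSeq on build GRCm38.p6, each as the 250 bases before the annotated start. These 4 were picked with no set rule and do not stand for the other members. Eif4a1 and Eif4g1 fell after CIT with both guides, Eif3f was not called lower with either, and Eif2b2 rose with both. Eif4a1 lies at chr11:69672424-69672673 on the minus strand, Eif4g1 at chr16:20672477-20672726, Eif3f at chr7:108934165-108934414 and Eif2b2 at chr12:85219231-85219480 on the plus strand. Capitals mark CACGTG, the canonical E-box that reads the same on both strands, which lies with its first base 189 bases before the start in Eif4a1, 54 in Eif4g1 and 68 in Eif3f, and is not in the Eif2b2 window.
Eif4a1: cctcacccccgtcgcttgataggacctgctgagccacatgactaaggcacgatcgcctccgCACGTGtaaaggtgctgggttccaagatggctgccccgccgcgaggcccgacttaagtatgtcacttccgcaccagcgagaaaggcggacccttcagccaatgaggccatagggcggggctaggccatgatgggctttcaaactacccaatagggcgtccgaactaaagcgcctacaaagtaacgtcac
Eif4g1: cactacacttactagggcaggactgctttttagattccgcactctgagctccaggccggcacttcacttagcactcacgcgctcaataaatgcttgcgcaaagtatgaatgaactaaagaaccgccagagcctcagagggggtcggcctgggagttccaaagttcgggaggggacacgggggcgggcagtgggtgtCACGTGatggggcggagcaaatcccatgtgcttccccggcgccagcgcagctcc
Eif3f: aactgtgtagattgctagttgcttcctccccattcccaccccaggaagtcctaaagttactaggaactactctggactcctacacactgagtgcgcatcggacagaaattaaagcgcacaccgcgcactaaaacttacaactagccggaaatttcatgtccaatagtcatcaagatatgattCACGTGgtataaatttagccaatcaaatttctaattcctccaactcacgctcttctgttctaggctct
Eif2b2: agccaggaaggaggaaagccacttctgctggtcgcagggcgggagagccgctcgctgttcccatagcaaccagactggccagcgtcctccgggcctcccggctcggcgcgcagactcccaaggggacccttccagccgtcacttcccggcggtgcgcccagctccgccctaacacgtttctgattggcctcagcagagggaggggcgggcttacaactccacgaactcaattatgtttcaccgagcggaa

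The promoter table held 48 of the 63 members, and windows of 300 bases, from 250 before to 50 after the start, were searched for CACGTG on both strands. It was present for 13 of the 48 members, or 27.1%, and for 8.09% of the 27025 genes in the table. By window the shares were 24.2% of 62 member windows and 7.15% of 32851 windows. The comparison shares are over the whole promoter table, and were not limited to tested genes or matched by level. Among the tested members with a match, 10 of 12 fell after CIT in sgCtr cells with a median log2 difference of -0.27, and among those without one 30 of 33 fell and 1 rose with a median of -0.23. In sgNop16 cells 10 of the 12 fell and 2 rose, and of the 33 without a match 25 fell and 2 rose. The motif was thus found in members that fell, such as Eef2, Eef2k, Eif4e and Eif5a. Eef2k had it in 1 of 3 windows, Eif4e in 1 of 2 and Eif5a in 3 of 6. It was also found in Eif1b and Eif3f, which were not called in sgCtr cells and were called higher in sgNop16 cells. It was absent in most members that fell, among them Eif3b, Eif2s2 and Eif5. A match is a run of letters and not a measured binding site.

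The scanning factors eIF1 and eIF1A hold the small subunit open while it searches for a start codon, and 3 of their 4 genes fell after CIT in sgCtr cells. With Eif1ad, which is grouped with them here, 4 of 5 fell, where 21.1% of all tested genes did. Eif1a, an autosomal gene for eIF1A, was at 183, 187 and 181 CPM without and 140.3, 122 and 126 CPM with CIT, and Eif1ax, its X-linked counterpart, at 138, 141 and 142 and 98.7, 104 and 105 CPM. The groups did not overlap for either gene, and the log2 differences were -0.51 ± 0.043, adjusted p = 1.15e-09, and -0.45 ± 0.040, adjusted p = 2.72e-09. In sgNop16 cells Eif1a was at 179, 184 and 178 CPM without and 142, 139 and 132 CPM with CIT (-0.39 ± 0.043, adjusted p = 1.1e-07), and Eif1ax at 138, 135 and 132 and 107, 113 and 119 CPM (-0.26 ± 0.040, adjusted p = 1.55e-05). Eif1, which guards start codon choice, fell from 301, 308 and 329.5 CPM to 258, 274 and 265 CPM in sgCtr cells (-0.24 ± 0.034, adjusted p = 5.17e-06). Its less abundant paralogue Eif1b was at 32.9, 34.4 and 36.2 CPM without and 38.7, 36.1 and 32.6 CPM with CIT in sgCtr cells, where the libraries overlapped (0.054 ± 0.069, adjusted p = 0.598). In sgNop16 cells Eif1b rose from 30.7, 33.1 and 33.4 CPM to 38.9, 36.99 and 39.1 CPM (0.24 ± 0.069, adjusted p = 0.00758), a call that was lost without replicate 1 of unstimulated sgNop16 (adjusted p = 0.065). The interaction test did not separate the responses of Eif1b with the 2 guides (adjusted p = 0.43). Eif1ad, which carries an eIF1A-like domain, fell with both guides, with log2 differences of -0.21 ± 0.054 and -0.33 ± 0.054.

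All 3 tested subunits of eIF2, the GTPase that carries the initiator tRNA, fell after CIT with both guides, as 15.5% of all tested genes did. Eif2s2, the beta subunit, went from 254, 261 and 254 CPM to 187, 179 and 186 CPM in sgCtr cells (-0.48 ± 0.033, adjusted p = 2.9e-11) and from 258, 249 and 256 to 195, 204 and 212 CPM in sgNop16 cells (-0.32 ± 0.033, adjusted p = 3.31e-08). Eif2s1, the alpha subunit that stress kinases phosphorylate, went from 231, 231 and 243 CPM to 192, 181 and 184 CPM (-0.34 ± 0.032, adjusted p = 5.22e-09) and from 243, 240.5 and 244 to 201, 205 and 206 CPM (-0.25 ± 0.031, adjusted p = 7.43e-07). The gamma subunit Eif2s3x, which binds GTP and the tRNA, went from 337, 338 and 334 CPM to 285, 282 and 290.0 CPM (-0.23 ± 0.027, adjusted p = 2.27e-07) and from 339, 345 and 345 to 296, 315 and 310.3 CPM (-0.16 ± 0.027, adjusted p = 4.99e-05). None of these 3 genes had overlapping libraries between the states, while the Y-linked copy Eif2s3y had 0 counts in all 12 libraries. The order of the falls, Eif2s2 before Eif2s1 before Eif2s3x, was the same in both guides. Outside eIF2, Eif2d, which can deliver a tRNA without GTP, fell in sgCtr cells from 69.9, 65.5 and 70.4 to 60.7, 61.6 and 62.1 CPM (-0.16 ± 0.049, adjusted p = 0.0124) and was at 77.03, 75.9 and 71.2 and 69.5, 74.95 and 75.3 CPM in sgNop16 cells (-0.028 ± 0.049, adjusted p = 0.719). The sgCtr call was lost without replicate 3 of unstimulated sgCtr (adjusted p = 0.0507). Eif2a, another alternative carrier, fell with both guides, with log2 differences of -0.18 ± 0.044 and -0.22 ± 0.044.

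The 5 subunits of eIF2B, the exchange factor that recharges eIF2 with GTP, split: 4 fell in sgCtr cells and Eif2b2 rose. Of all tested genes 21.1% fell and 20.6% rose in these cells. Eif2b2, the beta subunit of the regulatory core, was at 43.9, 40.99 and 48.1 CPM without and 55.8, 66.2 and 57.6 CPM with CIT in sgCtr cells. Its levels in sgNop16 cells were 46.9, 45.7 and 44.3 and 59.8, 60.5 and 60.7 CPM. The stimulated libraries lay above the unstimulated ones in both guides (0.43 ± 0.065, adjusted p = 7.15e-06 in sgCtr, and 0.40 ± 0.065, adjusted p = 2.26e-05 in sgNop16). The catalytic gamma subunit Eif2b3 went the other way, from 55.99, 51.8 and 53.1 to 38.8, 41.5 and 44.5 CPM in sgCtr cells (-0.37 ± 0.062, adjusted p = 4.04e-05), and so did the delta subunit Eif2b4, from 46.8, 58.3 and 49.4 to 43.1, 40.9 and 39.8 CPM (-0.32 ± 0.070, adjusted p = 0.000679). Eif2b5, the catalytic epsilon subunit, and Eif2b1, the alpha subunit that senses phosphorylated eIF2, fell in sgCtr cells with log2 differences of -0.21 ± 0.039 and -0.30 ± 0.056. In sgNop16 cells Eif2b3, Eif2b4 and Eif2b5 were called lower and Eif2b1 was not (-0.14 ± 0.056, adjusted p = 0.0519), though it was in 5 of the 15 alternatives. The sgNop16 call of Eif2b4 (-0.18 ± 0.070, adjusted p = 0.0428) was lost on leaving out any one of 5 libraries, replicates 1 and 2 unstimulated and all 3 stimulated, with adjusted p from 0.054 to 0.151. It was also lost with library totals in place of TMM or without robust dispersion. The summed level of the complex, the rise of Eif2b2 included, fell by 11.3% in sgCtr cells and by 6.28% in sgNop16 cells.

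Of the 14 genes of eIF3, the largest initiation factor, 11 fell and 0 rose in sgCtr cells, where 21.1% and 20.6% of all tested genes did. In sgCtr cells 0 were higher also at an unadjusted p under 0.05 and by DESeq2. In sgNop16 cells 8 fell and 1 rose, where 18.5% and 19.3% of all tested genes did. The 3 not called in sgCtr cells were Eif3f, Eif3h and Eif3j2. In sgCtr cells the median log2 difference was -0.42 over the 6 peripheral genes and -0.17 over the 8 genes of the core octamer. Of these, 5 of 6 and 6 of 8 fell. The sgNop16 medians were -0.27 and -0.076. The peripheral genes count both Eif3j1 and its copy Eif3j2, which share reads as described below. The difference between the modules was not tested. Eif3b, the scaffold of the peripheral module, was at 645, 676 and 659.6 CPM without and 478, 478 and 469.8 CPM with CIT in sgCtr cells, and at 626, 631 and 638 and 520.3, 533 and 514 CPM in sgNop16 cells. It fell with both guides (-0.47 ± 0.024, adjusted p = 1.39e-13 in sgCtr, and -0.27 ± 0.024, adjusted p = 2.8e-09 in sgNop16). Eif3j1, which encodes a loosely bound subunit, went from 204, 199.5 and 197 to 139, 144 and 146 CPM in sgCtr cells (-0.49 ± 0.048, adjusted p = 1.72e-08), and its near-identical copy Eif3j2 from 32.3, 31.4 and 34.6 to 24.3, 24.3 and 22.6 CPM without passing the test (-0.46 ± 0.25, adjusted p = 0.177). With only the sgCtr libraries fitted, Eif3j2 was called lower (adjusted p = 9.67e-05), and its sgNop16 libraries, which enter the spread when all groups are fitted, were at 56.7, 35.8 and 29.9 CPM without and 25.6, 25.3 and 38.3 CPM with CIT. Reads can be shared between these copies, so each is uncertain by itself, and so is the median of the peripheral genes. Eif3g, an RNA-binding peripheral subunit, fell from 216, 215 and 207 to 162, 166 and 161 CPM in sgCtr cells (-0.38 ± 0.032, adjusted p = 1.06e-09) and from 217, 221 and 209.6 to 182, 183 and 176 CPM in sgNop16 cells (-0.26 ± 0.032, adjusted p = 6.75e-07).

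In the core octamer, Eif3f and Eif3h, the pair of subunits that carry MPN domains, were not called lower with either guide. Eif3f was at 304, 318 and 316 CPM without and 316, 320.0 and 320.2 CPM with CIT in sgCtr cells, where the libraries overlapped (0.027 ± 0.029, adjusted p = 0.511). In sgNop16 cells Eif3f rose from 293, 276 and 281 to 308, 316 and 312 CPM (0.14 ± 0.029, adjusted p = 0.000461), and the interaction test did not separate the responses (adjusted p = 0.175). As a percentage of the mean of unstimulated sgCtr, sgNop16 cells were at 90.7% without and 99.8% with CIT. Eif3h was at 575, 579.6 and 598 CPM without and 573, 565 and 585 CPM with CIT in sgCtr cells (-0.025 ± 0.024, adjusted p = 0.47), with an sgNop16 difference of -0.038 ± 0.024, adjusted p = 0.247. Eif3c, a central core subunit, fell in sgCtr cells from 561, 528 and 531 to 471, 456 and 461 CPM (-0.22 ± 0.026, adjusted p = 2.44e-07) and in sgNop16 cells from 538, 543 and 538 to 519, 512 and 501 CPM (-0.081 ± 0.026, adjusted p = 0.0176), the latter lost without replicate 3 of stimulated sgNop16 (adjusted p = 0.0764). Eif3l fell in sgCtr cells from 310.3, 306 and 312 to 267, 265 and 262 CPM (-0.23 ± 0.027, adjusted p = 2.17e-07) and in sgNop16 cells from 295, 299 and 289 to 274, 282 and 280.2 CPM (-0.079 ± 0.027, adjusted p = 0.0212), the latter lost without replicate 1 of stimulated sgNop16 (adjusted p = 0.076). The core subunits Eif3a and Eif3k fell in sgCtr cells with log2 differences of -0.28 ± 0.026 and -0.25 ± 0.035. The smaller sgCtr falls of Eif3e (-0.079 ± 0.028, adjusted p = 0.0255) and Eif3m (-0.13 ± 0.044, adjusted p = 0.0253) depended on single libraries. Eif3e was not called without replicate 1 or 3 of either sgCtr state (adjusted p 0.0531 to 0.103), nor Eif3m without replicate 3 unstimulated or replicate 1 or 3 stimulated (adjusted p 0.0966 to 0.161). Both calls were also lost with library totals in place of TMM. That of Eif3e was lost with a stricter filter too, and that of Eif3m with only the sgCtr libraries fitted.

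**Figure D2:**
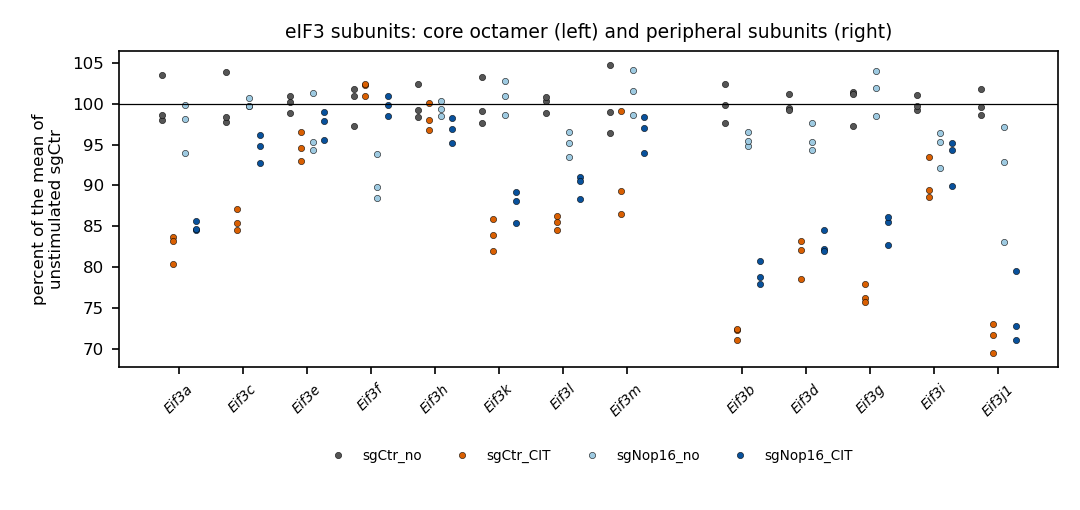
Level of 13 eIF3 genes in each library as a percentage of the mean of the 3 unstimulated sgCtr libraries (vertical axis, which does not start at 0), core octamer at left and peripheral subunits at right, 3 points per group. Stimulated sgCtr libraries (orange) of Eif3b, Eif3g and Eif3j1 lie lowest, and those of Eif3f and Eif3h lie near 100%. The copy Eif3j2 is left out.

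Of the 11 tested cap and helicase factors, which bring the small subunit to the capped end of an mRNA and unwind it, 10 fell in sgCtr cells. Of all tested genes 21.1% fell there. Eif4e, which encodes the cap-binding protein, was at 318, 318 and 324 CPM without and 234, 218 and 222 CPM with CIT in sgCtr cells, and at 304, 298 and 335 and 242, 259.5 and 244 CPM in sgNop16 cells. It fell with both guides (-0.51 ± 0.039, adjusted p = 2.01e-10 in sgCtr, and -0.33 ± 0.039, adjusted p = 3e-07 in sgNop16). Eif4e2, a relative that competes for the cap, fell in sgCtr cells from 143, 139.6 and 154 to 134, 128 and 127 CPM (-0.17 ± 0.044, adjusted p = 0.0031) and was at 125, 142 and 130.1 and 133, 133 and 134 CPM in sgNop16 cells (0.011 ± 0.044, adjusted p = 0.886). The low-level relative Eif4e3 went from 22.7, 24.8 and 24.6 to 18.7, 20.4 and 18.8 CPM in sgCtr cells (-0.32 ± 0.099, adjusted p = 0.0124), and from 23.4, 20.7 and 24.9 to 16.9, 18.2 and 22.001 CPM in sgNop16 cells (-0.27 ± 0.099, adjusted p = 0.0329). That last call was lost without replicate 1 or 3 unstimulated or replicate 1 or 2 stimulated (adjusted p 0.0709 to 0.168). It was also lost with only the sgNop16 libraries fitted.

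Both helicase paralogues fell with both guides. Eif4a1, the main eIF4A, was at 1329, 1279 and 1337 CPM without and 993, 997 and 993 CPM with CIT in sgCtr cells, and at 1229.6, 1238 and 1263 and 1036, 1068 and 1037 CPM in sgNop16 cells. Its falls were -0.40 ± 0.022, adjusted p = 3.72e-13, and -0.25 ± 0.022, adjusted p = 2.27e-09. Eif4a2 went from 516, 530.3 and 536 to 501, 488 and 492 CPM (-0.095 ± 0.027, adjusted p = 0.00617) and from 531, 517 and 557 to 488, 495 and 496 CPM (-0.12 ± 0.027, adjusted p = 0.0012). With library totals in place of TMM the sgCtr call of Eif4a2 was lost (adjusted p = 0.0713). Per kilobase of exon, unstimulated sgCtr cells held 303 ± 7.21 CPM of Eif4a1 and 98.8 ± 1.87 CPM of Eif4a2, a ratio of 3.07, or 2.13 by the longest transcript. Reads of Eif4a1 can be shared with the pseudogene Eif4a-ps4, which held 13.8% as many counts, and snoRNA genes overlap both helicase genes. Eif4a3, the helicase of the exon junction complex, fell in sgCtr cells with a log2 difference of -0.23 ± 0.036.

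Among the scaffolds, Eif4g1, which joins eIF4E to eIF4A, was at 1441, 1429.6 and 1393 CPM without and 1161, 1164 and 1171 CPM with CIT in sgCtr cells (-0.29 ± 0.019, adjusted p = 2.31e-11), and at 1406, 1429 and 1398 and 1197, 1195 and 1194 CPM in sgNop16 cells (-0.24 ± 0.019, adjusted p = 6.03e-10). Eif4g2, a relative that lacks the eIF4E site, went from 930.5, 888 and 906 to 765, 747 and 753 CPM (-0.27 ± 0.022, adjusted p = 6.84e-10) and from 925, 925 and 928 to 797, 815 and 801 CPM (-0.20 ± 0.022, adjusted p = 7e-08). Eif4g3, the other full-length scaffold, was not called lower with either guide. In sgCtr cells it was at 206, 205 and 199.9 CPM without and 197, 189.8 and 199 CPM with CIT, all stimulated libraries below the unstimulated ones, without passing the test (-0.058 ± 0.033, adjusted p = 0.185). In sgNop16 cells Eif4g3 rose from 202, 199 and 187 to 212, 211 and 208 CPM (0.10 ± 0.033, adjusted p = 0.0164), a call lost without replicate 3 unstimulated or replicate 1 stimulated (adjusted p 0.0624 to 0.217), and its interaction did not pass in edgeR (adjusted p = 0.0694) and did in DESeq2 (adjusted p = 0.0173). Both helicase cofactors fell with both guides, with log2 differences of -0.24 ± 0.031 and -0.16 ± 0.031 for Eif4h and -0.085 ± 0.018 and -0.091 ± 0.018 for Eif4b.

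The largest fall of any tested factor gene on the log2 scale was that of Eif4ebp1, which encodes the inhibitor of eIF4E that mTOR switches off. It was at 25.2, 27.2 and 24.96 CPM without and 11.8, 11.1 and 11.4 CPM with CIT in sgCtr cells, and at 23.5, 21.7 and 19.6 and 11.1, 13.6 and 13.7 CPM in sgNop16 cells. The states did not overlap in either guide, and it fell with both (-1.18 ± 0.10, adjusted p = 1.36e-09 in sgCtr, and -0.76 ± 0.10, adjusted p = 1.69e-06 in sgNop16). The interaction for Eif4ebp1 was 0.42 ± 0.14 and did not pass in edgeR (adjusted p = 0.126) and did in DESeq2 (adjusted p = 0.0335). Its paralogue Eif4ebp2 was more abundant and fell less, from 339.6, 335 and 324 to 299.6, 322 and 303 CPM in sgCtr cells (-0.11 ± 0.029, adjusted p = 0.00322) and from 323, 327 and 328 to 304, 305 and 307 CPM in sgNop16 cells (-0.096 ± 0.029, adjusted p = 0.0119). Eif4ebp3 was counted at no more than 0.966 CPM in any library and was not called. It shares 501 exon bases on the same strand with the gene AC115631.1, which had a mean of 801 counts per library against 23.2 for Eif4ebp3, so its reads may be counted there and its own level is uncertain. Eif4enif1, which encodes a carrier of eIF4E to the nucleus, fell in sgCtr cells from 217, 219 and 212 to 200.2, 203 and 192 CPM (-0.12 ± 0.031, adjusted p = 0.00245) and was at 208, 202 and 209 and 199, 201 and 198 CPM in sgNop16 cells (-0.049 ± 0.031, adjusted p = 0.237).

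Of the gene groups, eIF5, eIF5A and eIF5B, which are separate factors, fell most by summed level. The sum fell by 25.5% in sgCtr cells and by 18.9% in sgNop16 cells. In unstimulated sgCtr cells 1695 of its 2502 CPM came from Eif5a. Eif5a, whose protein carries the hypusine residue and helps the ribosome past difficult peptide bonds, was at 1672, 1713 and 1701 CPM without and 1252, 1268 and 1227 CPM with CIT in sgCtr cells. In sgNop16 cells it was at 1651, 1649 and 1695 and 1382, 1385 and 1404 CPM. It fell with both guides (-0.44 ± 0.020, adjusted p = 1.45e-14 in sgCtr, and -0.26 ± 0.020, adjusted p = 2.09e-10 in sgNop16), with no overlap. Eif5, the activator of the eIF2 GTPase, fell with both guides, from 426, 427 and 420.3 to 303, 315 and 319.6 CPM (-0.44 ± 0.027, adjusted p = 5.01e-12) and from 441, 428 and 447 to 311, 320.1 and 322 CPM (-0.47 ± 0.027, adjusted p = 2.28e-12), with an interaction of -0.024 ± 0.039. Eif5b, which joins the large subunit, fell with both guides, with log2 differences of -0.34 ± 0.031 and -0.31 ± 0.031. The paralogue Eif5a2 had 4 counts in all 12 libraries together.

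By summed level the eEF1 genes changed least of the gene groups, and their sum fell by 6.44% in sgCtr cells and by 2.02% in sgNop16 cells. Eef1a1 was at 8822, 8717 and 8702 CPM without and 8305, 8425 and 8304 CPM with CIT in sgCtr cells, a small fall that passed the test (-0.068 ± 0.014, adjusted p = 0.000385). In sgNop16 cells it was at 8324, 8369.5 and 8545 and 8326, 8424 and 8347 CPM, with overlap (-0.0081 ± 0.014, adjusted p = 0.721). The neuronal and muscle paralogue Eef1a2 had 0 counts. The exchange factors that recharge eEF1A all fell with both guides. Eef1d went from 319.6, 314 and 319 to 264, 264 and 252 CPM in sgCtr cells (-0.29 ± 0.030, adjusted p = 2.65e-08), while Eef1g and Eef1b2 had log2 differences of -0.18 ± 0.022 and -0.16 ± 0.025. The sgNop16 call of Eef1b2 (-0.072 ± 0.025, adjusted p = 0.0269) was lost without replicate 3 unstimulated or replicate 1 or 3 stimulated (adjusted p 0.0542 to 0.0864). It was also lost with library totals or with no low-count filter. Eef1e1, a scaffold of the tRNA synthetase complex, fell more, from 56.8, 51.3 and 57.7 to 40.6, 34.9 and 38.4 CPM in sgCtr cells (-0.54 ± 0.063, adjusted p = 1.86e-07) and from 59.8, 58.2 and 54.7 to 41.3, 40.6 and 40.2 CPM in sgNop16 cells (-0.50 ± 0.063, adjusted p = 7.47e-07). Eef2 was at 3439.5, 3469 and 3447 CPM without and 3089, 3156 and 3044 CPM with CIT in sgCtr cells (-0.16 ± 0.020, adjusted p = 5.81e-07).

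Of the enzymes that modify the elongation factors, both that act on eEF2 and 2 of the 4 eEF1A methyltransferases fell in sgCtr cells. Of all tested genes 21.1% fell there. Eef2k, the kinase that inhibits eEF2, went from 128, 134 and 125 to 102, 114 and 101 CPM in sgCtr cells (-0.29 ± 0.044, adjusted p = 8.94e-06) and from 108, 111 and 113 to 100.2, 96.5 and 97.8 CPM in sgNop16 cells (-0.17 ± 0.044, adjusted p = 0.00327). Eef2kmt, a lysine methyltransferase of eEF2, went from 29.4, 28.02 and 23.9 to 21.8, 19.6 and 19.7 CPM in sgCtr cells (-0.41 ± 0.086, adjusted p = 0.000413). Among the eEF1A methyltransferases, Eef1akmt1 went from 36.4, 36.98 and 36.4 to 31.7, 27.1 and 26.6 CPM (-0.36 ± 0.080, adjusted p = 0.000676) and Eef1akmt4 from 33.6, 34.001 and 33.9 to 26.8, 28.1 and 30.7 CPM (-0.25 ± 0.072, adjusted p = 0.00726). Eef1akmt2 was not called in sgCtr cells (-0.15 ± 0.091, adjusted p = 0.221) and was called lower in sgNop16 cells (-0.28 ± 0.091, adjusted p = 0.0163), except without replicate 1 of stimulated sgNop16 (adjusted p = 0.0509). Eef1akmt3 was at most 2.07 CPM in any library and was not called.

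The 8 members that fell in sgCtr cells alone were Eif2b1, Eif2d, Eif3e, Eif3i, Eif3m, Eif4e2, Eif4enif1 and Eef1a1, and their interaction tests gave adjusted p from 0.125 to 0.806. Called in neither response were Eif3h, Eif3j2, Eif4ebp3 and Eef1akmt3, which were called in none of the 5 comparisons, apart from Eif3j2 in sgCtr cells when only those libraries were fitted. Among the 4 members without a test, Eef1a2, Eif2s3y and Eif4e1b had 0 counts and Eif5a2 had 4. Several values carry a limit from shared sequence or overlapping exons. The processed pseudogene Gm9892 held 12.5% as many counts as Eif2s2, and 13 genes with stretches similar to Eif1 held 24.1% as many as that gene, most of those counts in Emd. The sources used here do not give the strand setting of the counting, so reads of genes that overlap on opposite strands may be mixed, among them Eif1ad with Banf1, Eif2b4 with Snx17, Eif2d with Rassf5, Eif3d with Gm17638, Eif3j1 with Spg11, Eef2kmt with Alg1 and Eif5b with Rev1. On the same strand, Eif4ebp3 overlaps AC115631.1, Eef1d overlaps Naprt and Eif4e3 overlaps Gm20696.

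Other genes of translation were read beside the factors from a list of 42, of which 41 were tested. In sgCtr cells 21 fell and 6 rose after CIT, where 21.1% and 20.6% of all tested genes did, with a median log2 difference of -0.19. In sgNop16 cells 18 fell and 5 rose, where 18.5% and 19.3% of all tested genes did, with a median of -0.11. The genes that rose most in sgCtr cells were Eif2ak3 and Pdcd4. Eif2ak3, the kinase of eIF2 in the endoplasmic reticulum (PERK), rose from 40.1, 39.5 and 40.8 to 85.2, 83.2 and 82.2 CPM in sgCtr cells (1.06 ± 0.052, adjusted p = 7.23e-14), and Pdcd4, an inhibitor of eIF4A, from 116, 117 and 127 to 233, 232 and 247 CPM (0.98 ± 0.038, adjusted p = 1.19e-15). Eif2ak4, the kinase that senses uncharged tRNA (GCN2), fell from 99.1, 105 and 101 to 61.98, 56.03 and 60.2 CPM (-0.77 ± 0.046, adjusted p = 1.98e-12), and Dph3, which acts in making the diphthamide of eEF2, from 42.8, 43.2 and 44.6 to 29.1, 24.6 and 27.2 CPM (-0.69 ± 0.068, adjusted p = 1.51e-08). Both enzymes that make the hypusine of eIF5A, Dhps and Dohh, fell with both guides, with sgCtr log2 differences of -0.30 ± 0.057 and -0.52 ± 0.058. The release factor genes Etf1 and Gspt1 and the recycling factor Abce1 fell as well, with sgCtr log2 differences of -0.32 ± 0.024, -0.32 ± 0.024 and -0.48 ± 0.032.

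Without stimulation the guides differed in few factor genes. In unstimulated cells 4 of 59 members were lower in sgNop16, where 1.92% of all genes were, and 0 were higher, where 2.14% were (4.06% in all). At an unadjusted p under 0.05, 16 were lower and 1, Eif2d, was higher, while 7.27% and 7.44% of all genes were, and DESeq2 called 9 lower and 0 higher. All 3 sgNop16 libraries lay below all 3 sgCtr libraries in 16 members (9.4% of all genes) and above in 3 (9.44%), Eif2d, Eif2s3x and Eif5. In the level range used above, 2 of 29 were lower and 0 higher, against 5.23% and 5.15% of genes. The median log2 difference was -0.031 over the members and 0.00025 over all genes. Eef2k was lower, at 108, 111 and 113 CPM against 128, 134 and 125 CPM (-0.22 ± 0.044, adjusted p = 0.00331), and so was Eif3f, at 293, 276 and 281 against 304, 318 and 316 CPM (-0.14 ± 0.029, adjusted p = 0.0047). These 2 calls held under every alternative tried. This comparison shares its unstimulated sgNop16 libraries with the CIT response in sgNop16 cells. The lower level of Eif3f here and its rise there are thus not independent. The differences of Eif4a1 (-0.08 ± 0.022, adjusted p = 0.0367) and Eef1a1 (-0.056 ± 0.014, adjusted p = 0.0237) were smaller. The Eif4a1 call was lost without replicate 1 or 3 of sgCtr or replicate 1 or 2 of sgNop16 (adjusted p 0.142 to 0.19). The same call was also lost with RLE size factors, library totals, no low-count filter, a replicate block or only the groups compared. That of Eef1a1 was lost when any one sgCtr replicate, or replicate 1 or 2 of sgNop16, was left out (adjusted p 0.0531 to 0.176). It was also lost with library totals, no low-count filter or only the groups compared. The count of lower members was 2 without replicate 1 or 3 of sgCtr or replicate 1 of sgNop16.

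With CIT the guides differed in the other direction. In stimulated cells 12 of 59 members were higher in sgNop16, where 4.05% of all genes were, and 0 were lower, where 3.07% were (7.12% in all). At an unadjusted p under 0.05, 18 were higher and 2, Eef2k and Eif4b, were lower, while 10.4% and 8.09% of all genes were, and DESeq2 called 15 higher and 0 lower. In 24 members all sgNop16 libraries lay above all sgCtr libraries (13.2% of all genes) and in 3, Eef1akmt2, Eef2k and Eif4b, below (10.9%). Among the 29 members at 66.9 to 501 CPM, 7 were higher and 0 lower, where 11.2% and 7.88% of genes in that range were. The median log2 difference was 0.055 over the members and 0.0082 over all genes. This comparison shares its sgCtr libraries with the CIT response in sgCtr cells, so the higher level here and the deeper fall there are not independent.

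**Figure D3:**
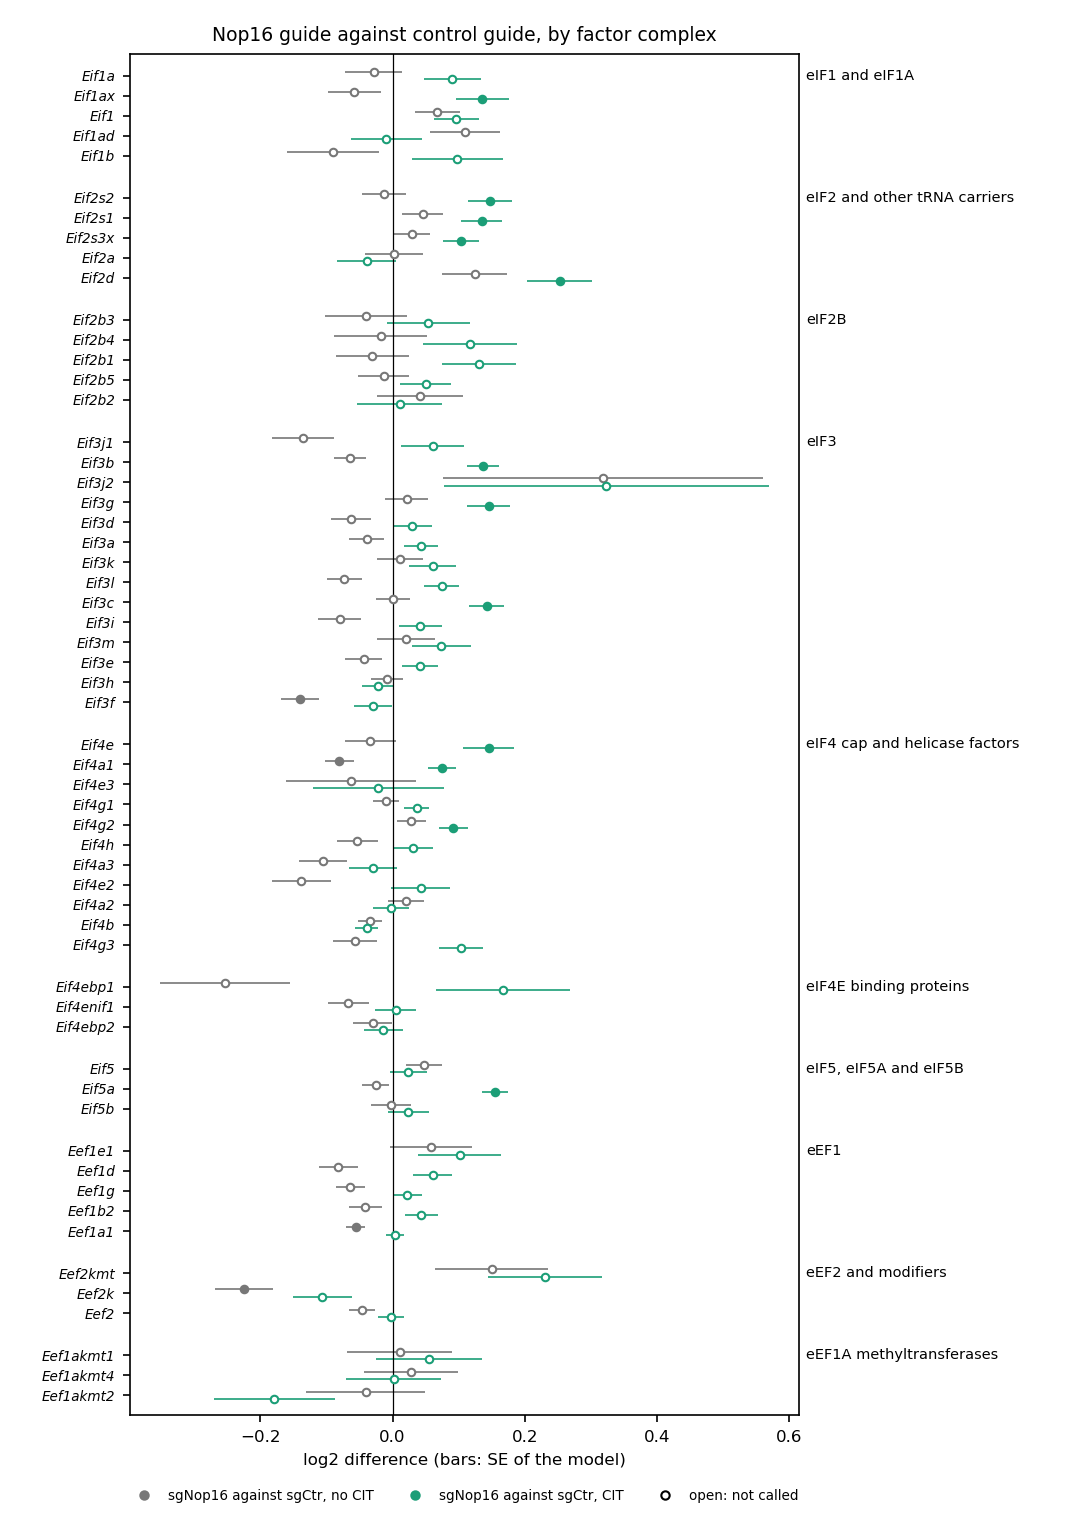
Log2 difference of sgNop16 against sgCtr (horizontal axis, bars are the SE of the model) for the same 57 factor genes by complex, without CIT (grey) and with CIT (green), with open points where the adjusted p was not under 0.05. The filled grey points, 4 of them, lie left of 0 and the 12 filled green points right of 0.

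The 12 members higher with CIT were in 5 of the gene groups. All 3 tested eIF2 subunits were among them, with log2 differences of 0.13 ± 0.032, adjusted p = 0.00937 for Eif2s1, 0.15 ± 0.033, adjusted p = 0.00644 for Eif2s2, and 0.10 ± 0.027, adjusted p = 0.0224 for Eif2s3x. Each was smaller in size than the CIT responses of the same gene with either guide, and each depended on single libraries. Eif2s1 was not called without replicate 2 of sgCtr (adjusted p = 0.0646), Eif2s2 without replicate 3 of sgNop16 (adjusted p = 0.059), and Eif2s3x without replicate 1 or 2 of sgCtr or 2 or 3 of sgNop16 (adjusted p 0.0716 to 0.128). The Eif2s3x call was also lost with only the groups compared. Eif2d had the largest difference of the 12 (0.25 ± 0.049, adjusted p = 0.00204), at 69.5, 74.95 and 75.3 CPM against 60.7, 61.6 and 62.1 CPM. From eIF3 came Eif3b (0.14 ± 0.024, adjusted p = 0.000763), Eif3c (0.14 ± 0.026, adjusted p = 0.0012) and Eif3g (0.15 ± 0.032, adjusted p = 0.00624). The hypusine factor Eif5a was higher by 0.15 ± 0.020, adjusted p = 2.04e-05, the smallest adjusted p of the members. Eif2d, Eif3b, Eif3c, Eif3g and Eif5a were called in every alternative tried.

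The scanning and cap factors among the 12 were less firm. Eif1ax (0.14 ± 0.040, adjusted p = 0.043) was not called when any one sgCtr replicate, or replicate 2 or 3 of sgNop16, was left out (adjusted p 0.0653 to 0.252), and Eif4e (0.15 ± 0.039, adjusted p = 0.0235) not without replicate 2 or 3 of sgCtr or 2 of sgNop16 (adjusted p 0.0886 to 0.151). Both calls were also lost without robust dispersion, and that of Eif1ax with library totals or only the groups compared. Eif4g2 (0.092 ± 0.022, adjusted p = 0.0111) was lost without replicate 2 of either guide (adjusted p 0.0577 to 0.064). Eif4a1 (0.075 ± 0.022, adjusted p = 0.0381) was lost when any one of the 6 libraries was left out (adjusted p 0.066 to 0.187). It was also lost with library totals, no low-count filter, a replicate block or only the groups compared. The count of higher members was 6 without replicate 2 of stimulated sgCtr and 7 without replicate 2 of stimulated sgNop16. Of the other translation genes, 5 were higher and 2 lower in stimulated sgNop16 cells, where 4.05% and 3.07% of all tested genes were. Highest were Abce1 (0.17 ± 0.032, adjusted p = 0.00103) and Denr, a recycling factor (0.17 ± 0.042, adjusted p = 0.0139). Lowest were Eif2ak3 (-0.22 ± 0.051, adjusted p = 0.00923) and Pdcd4 (-0.14 ± 0.038, adjusted p = 0.0266). Without CIT, 2 of the other translation genes were lower, where 1.92% of all tested genes were. These were Eif2ak4 (-0.20 ± 0.045) and Mknk2, a kinase of eIF4E (-0.18 ± 0.036).

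How far the CIT response itself differed between the guides was tested as an interaction, which passed in 5 members, all with a shallower fall in sgNop16 cells (positive, as sgNop16 minus sgCtr), and in 0 with a deeper one (negative). Among all genes 1.23% were called positive and 1.6% negative (2.83% in all). Of the 29 members in the level range used above, 1 was positive and 0 negative, against 3.54% and 4.43% of genes. The positive one was Eif3l. The other called members lay above that range by mean level over all libraries, where no such share was taken. At an unadjusted p under 0.05, 22 members were positive and 0 negative, where 7.22% and 6.12% of all genes were, and DESeq2 called 11 positive and 0 negative. The median was 0.085 over the members and 0.0069 over all genes. The interaction equals the guide difference with CIT minus that without CIT, so it is not independent of those comparisons. Summed over all members, sgNop16 against sgCtr was -2.66% without and 2.25% with CIT. In this sum a lower start and a higher end thus both entered the shallower fall, which did not hold for every group or gene. Without CIT the sum of eIF2 and other tRNA carriers was 1.80% higher in sgNop16, while that of eEF1 was 3.83% lower. The log2 guide differences without and with CIT were -0.08 and 0.075 for Eif4a1, -0.064 and 0.14 for Eif3b, and -0.073 and 0.075 for Eif3l. For Eif5a they were -0.026 and 0.15, and for Eif3c 0.00082 and 0.14. Eif3b went to 475 ± 4.79 CPM with CIT in sgCtr cells and to 523 ± 9.67 CPM in sgNop16 cells from levels of 660.4 ± 15.6 and 632 ± 5.71 CPM, an interaction of 0.20 ± 0.034, adjusted p = 0.00151. For Eif5a the interaction was 0.18 ± 0.028, adjusted p = 0.00063 and for Eif4a1 0.16 ± 0.031, adjusted p = 0.00574. These 3 calls held in every alternative tried.

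Eif3c (0.14 ± 0.037, adjusted p = 0.0403) and Eif3l (0.15 ± 0.038, adjusted p = 0.0336) complete the 5, and their interaction calls were lost in 14 of 20 alternatives each. For Eif3c this was so on leaving out any one unstimulated library, replicate 2 or 3 of stimulated sgCtr or 1 or 2 of stimulated sgNop16 (adjusted p 0.0574 to 0.197). For Eif3l it was so on leaving out any one library other than replicate 1 of stimulated sgNop16 (adjusted p 0.0525 to 0.112). The count of positive members was 3 on leaving out any one of the unstimulated sgCtr libraries, replicate 2 or 3 of stimulated sgCtr, replicate 1 of unstimulated sgNop16 or replicate 2 of stimulated sgNop16. Myc, whose product is a regulator of many growth genes, fell after CIT from 454, 449.5 and 462 to 204, 198 and 189.6 CPM in sgCtr cells and from 463, 467 and 458 to 239, 251 and 244 CPM in sgNop16 cells, with an interaction of 0.29 ± 0.041, adjusted p = 0.000286. Its part in the levels of the factor genes was not tested. Of the other translation genes, Eif2ak3 (-0.27 ± 0.073, adjusted p = 0.0449) and Pdcd4 (-0.20 ± 0.054, adjusted p = 0.0417) had negative interactions, each with a smaller rise in sgNop16 cells.

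**Figure D4:**
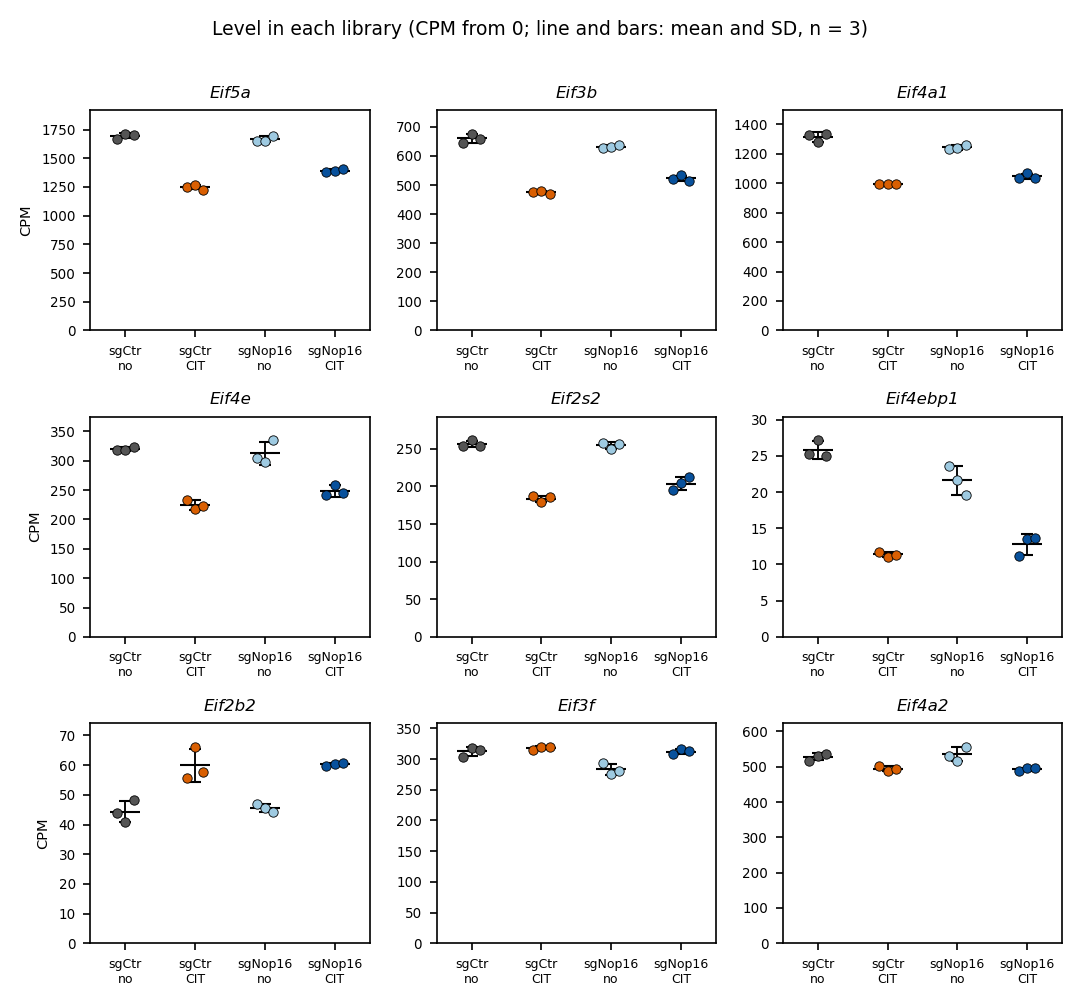
Level in CPM (vertical axes from 0) of 9 factor genes in each of the 12 libraries, with the mean and SD of the 3 libraries of a group. For Eif5a, Eif3b and Eif4a1 the stimulated sgNop16 libraries lie above the stimulated sgCtr libraries, Eif2b2 rises with both guides, and Eif3f is lowest in unstimulated sgNop16 cells.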

How the data were processed

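RNA-seq libraries were made from total RNA with a directional kit, per the labels' protocols. The authors deposited 1 table of estimated counts per gene and library, with 56941 genes and 12 libraries. The submitters' processing notes name HISAT2 2.2.1, StringTie 2.2.1 and GRCm39, and no source used here gives the strand setting or annotation release. In the deposited counts the value 4 occurred 8845 times, against 7532 for 3, 4025 for 5 and 9797 for 1. No such excess was seen at 8, with 3745 values against 4431 for 7. Thus 1 fragment may stand for about 4 counts, which these values do not settle. In that case small counts carry more error than their size shows. Symbols came from GENCODE M21 (GRCm38), which matched 51948 genes, and the other 4993 made up no more than 0.365% of the counts of any library. The factor genes and all lists were chosen with earlier results of these data known.

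The estimated counts are whole numbers as deposited, and were filtered with filterByExpr, scaled by TMM and fitted over all 12 libraries with 1 mean per group (edgeR 4.0.16 in R 4.3.3, glmQLFit with robust dispersion, chosen to match earlier processing of these data). Groups were compared by glmQLFTest, two-sided, with Benjamini-Hochberg adjustment over 16794 genes and a threshold of 0.05. Members named with values were the 2 called with the largest change in each direction per complex in sgCtr cells, those called between guides or in the interaction (the 10 with the smallest p where more were called), and paralogue pairs, and others named were chosen after their values were seen. Of other translation genes, 2 per direction and comparison follow the rule. The fit was also run on simulated counts, whose outcome is not given here and adds no weight to the calls. Alternatives were DESeq2 1.42.0, RLE size factors, library totals, other filters, counts divided by 4, no robust dispersion, a replicate block, a fit of only the groups compared, and leaving out each library. The replicates are stated to be biological, with no further detail, so p-values measure the spread between these libraries. Total counts were 38866418 to 48615177 per library, and the SE and SD given also rest on the spread between libraries. How much preparation error that spread holds cannot be told from the sources used here.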

Additional observations from a re-analysis of the deposited data

Results flagged for a closer look

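For 5 factor genes the test of the interaction term found that the CIT response differed between the guides, with a shallower fall in sgNop16 cells in each case. The difference between the responses, sgNop16 minus sgCtr, was 0.20 on the log2 scale for Eif3b, 0.14 for Eif3c, 0.15 for Eif3l, 0.16 for Eif4a1 and 0.18 for Eif5a. Those of Eif3b, Eif4a1 and Eif5a passed in every alternative tried, and those of Eif3c and Eif3l did not. Among all genes 1.23% were called positive. Of the 29 members at 66.9 to 501 CPM, 1, Eif3l, was positive, where 3.54% of genes in that range were. By mean level over all libraries, Eif3b, Eif3c, Eif4a1 and Eif5a lay above that range, where no such share was taken.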

How the results depend on the processing

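The CIT responses kept their counts best: over the library removals 47 to 50 members were called lower and 1 higher in sgCtr cells, and 38 to 42 lower and 3 to 4 higher in sgNop16 cells. The guide difference without CIT had 2 to 6 lower members over the removals, 2 with library totals, with no low-count filter or with only the groups compared, and 9 with DESeq2. With CIT, 6 to 11 were higher over the removals, and 15 with DESeq2. The interaction had 3 to 6 positive members over the removals, 3 with library totals or no low-count filter, and 11 with DESeq2. No alternative gave a member called higher without CIT, lower with CIT between the guides, or negative in the interaction, and none reversed a called member. In all, 47 of 51, 39 of 47, 2 of 4, 5 of 12 and 3 of 5 calls (CIT in sgCtr, CIT in sgNop16, guide without CIT, guide with CIT, interaction) were made in every alternative. The Eif4a1 to Eif4a2 ratio per kb moved from 3.07 to 2.13 with the longest transcript. The fit without robust dispersion was added after the data were seen, and only the groups compared could not be fitted for the interaction, which needs all 4.

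The replicate numbers did not pair the libraries: correlations of same-numbered libraries lay between -0.045 and 0.023. With the replicate block the counts were 50 lower and 1 higher for CIT in sgCtr, 43 lower and 4 higher for CIT in sgNop16, 3 lower between guides without CIT, 11 higher between guides with CIT, and 4 positive interactions.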
